A study of Mus musculus with 3 samples.

Results

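Retinal microglia, the resident macrophages of the retina, were described here through 1 cluster of 88 cells among 15242 single cells from 3 mouse retina libraries. The cluster was selected on a measured value: among clusters 13 to 20 of the deposited cell table, cluster 13 had the highest share of cells with a unique molecular identifier (UMI, a tag for 1 captured RNA molecule) of C1qa, at 88.6%, and the next, cluster 15, had 1.56%. It held 52 cells of the rd10-vehicle library, 30 of the rd10-TMB library and 6 of the WT library. C1qa, and every gene that helped to form the clusters, is therefore part of how these cells were chosen, and levels against the other clusters are given as a description only. The 6 WT cells and 4 of the rd10-vehicle cells held no C1qa UMI, so the name microglia does not cover all 88. A further 28 carried transcripts of the related border macrophages, as described below.

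The WT library came from wildtype mice on plain chow, the rd10-vehicle library from female Rd10 mice on the same base chow, and the rd10-TMB library from female Rd10 mice fed tamsulosin, metoprolol and bromocriptine in the chow. Per the study, the WT mice were of both sexes. All mice carried the strain label C57BL/6J, were reared in the dark and were 8 weeks old. The rd10 allele changes 1 base of Pde6b, which encodes a subunit of the phosphodiesterase of rods, and keeping the animals in the dark slows the loss of photoreceptors. Tamsulosin blocks alpha-1 adrenergic receptors, metoprolol blocks beta-1 adrenergic receptors and bromocriptine is a dopamine D2-like receptor agonist. Each library pooled single retinas of 4 mice according to the labels, although a lower number is stated for rd10 in the methods. With 1 pooled library per group there was no replicate and no test between groups. The 95% intervals below cover counting error only, so differences beyond them describe the libraries at hand, and the conditions could not be compared.

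Microglia enter the retina before birth, depend on signalling through the receptor Csf1r and survey the plexiform layers with mobile processes. When photoreceptors degenerate they are known to move towards the outer retina, engulf rods and debris, and shift from surveillance genes such as P2ry12 and Tmem119 towards a damage-associated programme that includes Apoe, Trem2 and lysosomal genes. The related border macrophages sit at vessels and at the retinal margins and share many of these genes, but also use Mrc1, Lyve1 and Pf4.

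The promoters of several genes that mark the cluster, or that differed between its libraries, are shown so that 2 short motifs can be seen in place. Sequences are those of RefSeq on GRCm38.p6, the assembly also called mm10, from 250 bases before the annotated start, 5′ to 3′ on the strand of the gene. Capitals mark matches on either strand. In the first 3, the motif is GAGGAA, the core bound by PU.1, a factor that macrophages need. These are C1qb (chr4:136886201-136886450, minus strand), C1qc (chr4:136892915-136893164, minus strand) and Ctss (chr3:95526536-95526785, plus strand), which encode parts of complement C1q and the lysosomal protease cathepsin S.
C1qb: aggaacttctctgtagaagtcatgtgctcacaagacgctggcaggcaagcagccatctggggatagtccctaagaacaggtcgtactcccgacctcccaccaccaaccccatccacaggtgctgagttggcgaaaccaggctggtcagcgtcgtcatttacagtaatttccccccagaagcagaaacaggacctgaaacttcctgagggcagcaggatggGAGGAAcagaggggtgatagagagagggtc
C1qc: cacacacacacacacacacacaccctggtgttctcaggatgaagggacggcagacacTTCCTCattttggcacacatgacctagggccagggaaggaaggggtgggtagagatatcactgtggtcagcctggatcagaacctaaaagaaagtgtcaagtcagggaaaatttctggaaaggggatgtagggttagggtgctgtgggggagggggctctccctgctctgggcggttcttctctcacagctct
Ctss: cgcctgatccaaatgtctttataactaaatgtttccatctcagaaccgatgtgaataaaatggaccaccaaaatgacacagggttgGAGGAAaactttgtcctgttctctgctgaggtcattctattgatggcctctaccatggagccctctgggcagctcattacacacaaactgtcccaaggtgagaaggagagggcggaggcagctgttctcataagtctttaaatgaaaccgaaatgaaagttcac
In the next 3, the motif is GAAANNGAA, part of the element through which interferons act. They belong to the chemokine gene Cxcl10 (chr5:92348890-92349139, minus strand), the antiviral gene Rsad2 (chr12:26456453-26456702, minus strand) and Ifit3 (chr19:34583279-34583528, plus strand).
Cxcl10: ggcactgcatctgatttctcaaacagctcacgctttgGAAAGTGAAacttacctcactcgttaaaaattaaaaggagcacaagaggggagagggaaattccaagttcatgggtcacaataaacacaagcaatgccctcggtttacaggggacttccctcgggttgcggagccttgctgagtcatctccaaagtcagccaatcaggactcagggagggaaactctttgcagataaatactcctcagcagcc
Rsad2: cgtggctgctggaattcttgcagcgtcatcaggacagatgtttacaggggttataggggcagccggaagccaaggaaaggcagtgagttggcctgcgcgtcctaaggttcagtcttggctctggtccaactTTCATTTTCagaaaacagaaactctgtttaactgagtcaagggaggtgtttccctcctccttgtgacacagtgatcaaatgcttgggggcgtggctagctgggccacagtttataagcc
Ifit3: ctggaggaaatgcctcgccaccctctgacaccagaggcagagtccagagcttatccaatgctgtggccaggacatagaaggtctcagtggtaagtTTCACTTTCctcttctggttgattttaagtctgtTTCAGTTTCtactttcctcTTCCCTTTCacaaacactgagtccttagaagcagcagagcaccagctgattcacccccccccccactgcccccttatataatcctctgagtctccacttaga
Over windows of 300 bases, which run 50 bases past the start, 28.3% of the 32851 promoters in the table held GAGGAA and 8.56% held GAAANNGAA. Of the 20 genes with the highest fold in the cluster over the rest, 15 had a promoter in the table and 12 of those held GAGGAA. Of the 7 interferon-response genes at least 2-fold lower in the rd10-TMB library, 6 had a promoter there and 5 of those held GAAANNGAA, as did 15 of the 24 matched genes of the whole interferon list. The shares over the table count promoters, while these count genes, some with several promoters. In Cxcl10 the match began 213 bases before the start, and in Rsad2 119 bases before it. The 3 matches in Ifit3 lay 155, 121 and 102 bases before the start. These are matches of letters and not measured sites.

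Most rd10 cells carried microglial transcripts, and the WT cells of the cluster did not. C1qa was found in 48 of the 52 rd10-vehicle cells and in 30 of the 30 rd10-TMB cells, and in 0 of the 6 WT cells. In the rd10-vehicle cells the C1qa level ran from 0 over a median of 72.1 to 150.0 UMIs per 10000 UMIs of the cell, and in the rd10-TMB cells from 13.6 over 74.2 to 133.7. The 6 WT cells together held 16119 UMIs, none of them from C1qa, C1qb, Csf1r or Cx3cr1. Of these cells, 2 held 28 and 56 UMIs of Igkc, an immunoglobulin light chain, with Cd79b and Cd74, and 1 held 69 Apoe, 18 Glul and 7 Aqp4 UMIs, which Müller glia and astrocytes express. The other 3 held no Igkc and no Apoe. Of the 6, 2 had over 10% mitochondrial UMIs. The WT members are therefore not called microglia here. Over all 88 cells, 15 of 15 microglia markers were at least 2-fold above the rest of the cells, which describes how the cluster was chosen. Cells with at least 3 of C1qa, C1qb, Csf1r and Cx3cr1 were counted in every cluster as well. They numbered 48 of 5952 in the rd10-vehicle library, a share of 0.806% (95% exact Clopper-Pearson interval 0.595 to 1.07), and 30 of 4812 in the rd10-TMB library, a share of 0.623% (0.421 to 0.889). In the WT library there were 0 of 4478, which allows a share of up to 0.0670%. All 78 lay in the cluster.

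By cluster membership, the share was 0.874% of cells in the rd10-vehicle library (0.653 to 1.14), 0.623% in the rd10-TMB library (0.421 to 0.889) and 0.134% in the WT library (0.0492 to 0.291). The intervals of the 2 rd10 libraries overlap, so no difference between them was detectable at these cell numbers. Dissociation and droplet capture set which cells are recovered, so shares of captured cells are not shares of the tissue.

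Library size moved with the group. The members held a median of 6162.5 UMIs in the rd10-vehicle library, 7538.5 in the rd10-TMB library and 2758.5 in the WT library, and summed to 322484, 231926 and 16119 UMIs. The median mitochondrial share of UMIs was 3.03%, 2.63% and 6.72%. No cell barcode of the members was shared between libraries, although 25 barcodes were shared in the series as a whole. The 4 rd10-vehicle members without C1qa held 16853 UMIs. Among them 1 had 222 Lyz2 and 20 Plac8 UMIs and 1 had 11 Ighm and 5 Cd79b UMIs, genes of monocytes and of B cells, while the other 2 had Cd52 and Ptprc but at most 1 Apoe UMI.

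**Figure D1:**
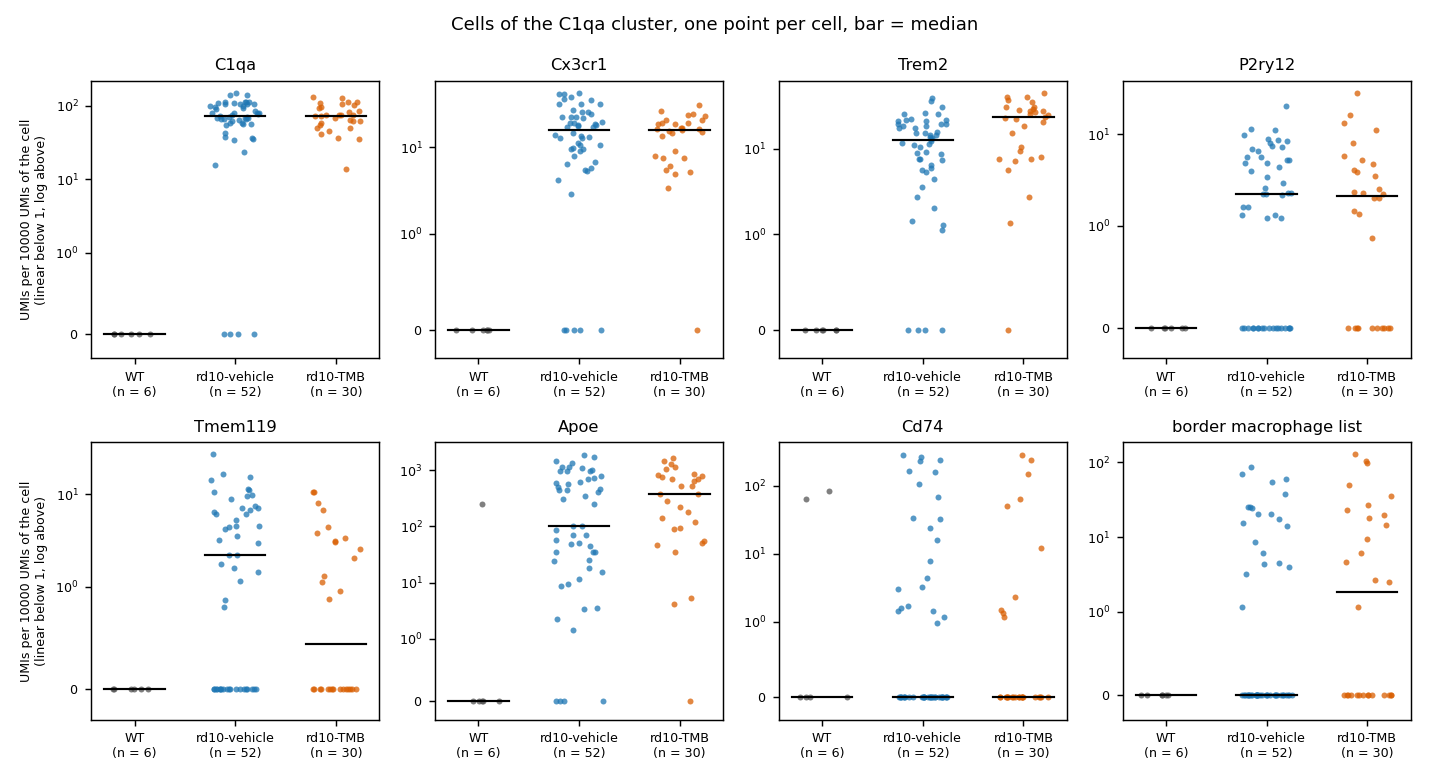
Level of 7 genes and of the summed border macrophage list in each member, in UMIs per 10000 UMIs of the cell (linear below 1, log above), for the 6 WT, 52 rd10-vehicle and 30 rd10-TMB cells. Points are cells and bars are medians; the WT cells sit at 0 for C1qa, Cx3cr1, Trem2, P2ry12 and Tmem119, while the rd10 libraries overlap throughout.

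The identity of the rd10 members rested on complement, Fc receptor and protease genes. C1qa (chr4:136895916-136898844) had 4150 UMIs in the cluster and 29 in the other 15154 cells, and the cluster held 98.8% of all C1qb UMIs in the series, 99.0% of those of C1qc and 99.1% of those of Ctss. Of the 32 listed identity genes, 31 had at least 50 UMIs in the cluster, and 21 of these had over 90% of their UMIs in the series there. The 20 genes with the highest fold over the rest also included the chemokine genes Ccl12, Ccl3 and Ccl4, the lipid sensor Trem2, the Fc receptors Fcgr1 and Fcgr3, the sialic acid receptor Siglech and the cytokine gene Il1b. Over the 21 clusters, the genes whose log2 level was most like the mean of the 4 markers were Fcgr3, Cd84, Ccr1, Ighm and Spi1, each with a Pearson r of 0.98, a value that reflects 1 high cluster among 21.

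Complement genes stayed within 2-fold between the 2 rd10 libraries. C1qa reached 7563 CPM (the count scaled to a total of 1000000 UMIs in the cluster) in the rd10-vehicle library and 7377 in the rd10-TMB library, a log2 ratio of rd10-TMB over rd10-vehicle of -0.04 (95% exact conditional interval -0.13 to 0.05). C1qb was at 7287 and 7239 CPM, with a log2 ratio of -0.01 (-0.10 to 0.08). C1qc was at 4620 and 5088 CPM, with a log2 ratio of 0.14 (0.03 to 0.25). Of 11 complement and complement receptor genes with at least 50 UMIs, 0 were 2-fold apart. For comparison, 1458 genes reached 50 UMIs over both libraries, of which 25 (1.71%) were at least 2-fold higher in the rd10-TMB library and 38 (2.61%) at least 2-fold lower. The median log2 ratio over the 1458 genes was -0.00, with a pseudocount of 1 UMI here and below. Itgam, the alpha chain of complement receptor 3, was at 462 CPM in the rd10-vehicle library and 315 in the rd10-TMB library, a log2 ratio of -0.54 (-0.98 to -0.14).

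Homeostatic genes, which mark surveying microglia, had close summed levels. Their summed level was 42287 CPM in the rd10-vehicle library and 40642 CPM in the rd10-TMB library, a log2 ratio of -0.06 (-0.10 to -0.02). Of the 24 with at least 50 UMIs, 0 were 2-fold higher and 0 were 2-fold lower, with a median of -0.02. Shares of 1.71% and 2.61% over all genes leave about 1 gene to be found among 24, so the count is near the background. The lowest ratios in the list were those of Tmem119 and Olfml3. Tmem119, a membrane protein used as a microglia marker, had 137 UMIs in 33 of 52 rd10-vehicle cells and 51 UMIs in 15 of 30 rd10-TMB cells, a log2 ratio of -0.93 (-1.44 to -0.48). Olfml3, a secreted glycoprotein, had 201 and 88 UMIs and a log2 ratio of -0.71 (-1.09 to -0.35). In the other direction, the transcription factor gene Maf had 83 and 92 UMIs, a log2 ratio of 0.62 (0.18 to 1.07). P2ry12, the ADP receptor that steers processes to injury, had 127 and 101 UMIs in 34 and 20 cells, with a log2 ratio of 0.15 (-0.25 to 0.53). Cx3cr1, the receptor for neuronal fractalkine, was at 1768 and 1505 CPM, a log2 ratio of -0.23 (-0.43 to -0.04). Csf1r, the survival receptor, was at 1436 and 1388 CPM, a log2 ratio of -0.05 (-0.26 to 0.16). Per cell, the homeostatic list had a median of 364 UMIs per 10000 in the rd10-vehicle library and 365 in the rd10-TMB library.

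The damage-associated list summed to close levels in both. It reached 78878 CPM in the rd10-vehicle library and 78754 CPM in the rd10-TMB library, a log2 ratio of -0.00 (-0.03 to 0.03), and of its 26 genes with at least 50 UMIs, 0 were 2-fold apart in either direction. Apoe, a lipid carrier, made up much of this sum, with 12829 UMIs (39782 CPM) in the rd10-vehicle library and 10007 UMIs (43147 CPM) in the rd10-TMB library. Its log2 ratio was 0.12 (0.08 to 0.15) over all members, and it was below 0 in each of the sets described further on, at -0.12 (-0.19 to -0.05) in core cells and -0.16 (-0.20 to -0.11) in border-marker cells. Single cells differed in Apoe far more than counting error allows. They ran from 0 over a median of 101 to 1890 UMIs per 10000 in the rd10-vehicle library and from 0 over 374 to 1626 in the rd10-TMB library. Müller glia cells, which also make Apoe, were at 24577 and 24466 CPM in the 2 rd10 libraries, and rod-like cells, which should lack it, at 325 and 257 CPM. Trem2, the lipid receptor needed for the damage-associated programme, was at 1420 and 2001 CPM, a log2 ratio of 0.49 (0.30 to 0.68). Its signalling partner Tyrobp was at 2633 and 2966 CPM, a log2 ratio of 0.17 (0.03 to 0.32). Late genes of the programme were sparse. Cst7 had 22 and 13 UMIs in 5 and 5 cells, Spp1 26 and 9 UMIs in 5 and 4 cells, and Lpl 11 and 11 UMIs in 7 and 4 cells. The iron storage genes Fth1 and Ftl1, counted in the list, had log2 ratios of -0.45 (-0.55 to -0.36) and -0.32 (-0.45 to -0.20).

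**Figure D2:**
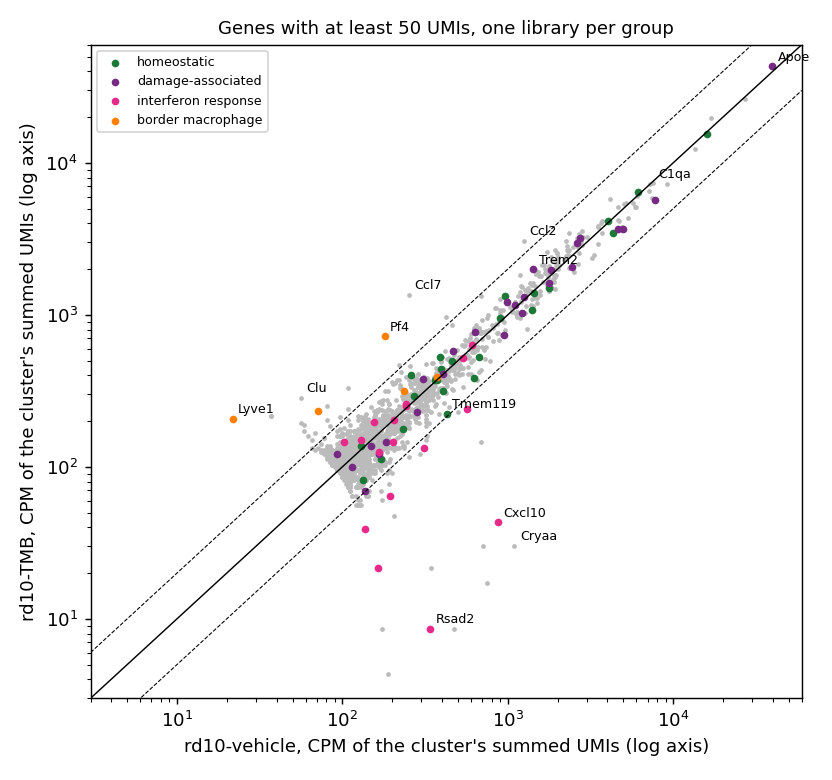
CPM of each gene with at least 50 UMIs in the cluster, rd10-vehicle on the x axis and rd10-TMB on the y axis (both log, 1 UMI added). Solid and dashed lines mark equal levels and 2-fold differences; homeostatic and damage-associated genes lie between the dashed lines, and Cxcl10 and Rsad2 lie far below them.

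Genes for engulfing and digesting debris were 2-fold apart about as often as all genes. Of 29 phagocytosis and lysosome genes with at least 50 UMIs, 0 were 2-fold higher and 1 was 2-fold lower (3.45%, against 2.61% of all genes), and the summed log2 ratio was -0.13 (-0.18 to -0.09). The lower gene was Gusb, lysosomal beta-glucuronidase, with 63 UMIs in 35 rd10-vehicle cells and 20 UMIs in 11 rd10-TMB cells, a log2 ratio of -1.13 (-1.98 to -0.43). Ctsd, cathepsin D, was at 4968 and 3682 CPM, a log2 ratio of -0.43 (-0.55 to -0.31). Mertk, a receptor for dying cells, had 53 and 22 UMIs and a log2 ratio of -0.76 (-1.58 to -0.05).

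Chemokine and cytokine genes split by gene. The list summed to 22770 CPM in the rd10-vehicle library and 23012 CPM in the rd10-TMB library, a log2 ratio of 0.02 (-0.04 to 0.07), and of 16 genes with at least 50 UMIs, 2 (12.5%, against 1.71% of all genes) were 2-fold higher and 1 (6.25%, against 2.61%), Cxcl10, was 2-fold lower. The higher genes were Ccl7 and Ccl2, which attract monocytes. Ccl12, which also does, was at 1718 and 1557 CPM, a log2 ratio of -0.14 (-0.34 to 0.05). Ccl7 had 80 UMIs in 8 rd10-vehicle cells and 314 UMIs in 6 rd10-TMB cells, with 150 of the latter in 1 cell. Its log2 ratio was 2.43 (2.09 to 2.82), and 1.60 without that cell. Ccl2 had 404 UMIs in 25 cells and 713 UMIs in 17 cells, a log2 ratio of 1.29 (1.12 to 1.47). Ccl3 and Ccl4, early chemokines of activated microglia, were at 5154 and 5476 CPM and at 9228 and 7239 CPM. Their log2 ratios were 0.09 (-0.02 to 0.19) and -0.35 (-0.44 to -0.26). Tnf had 225 and 159 UMIs, a log2 ratio of -0.02 (-0.33 to 0.27), and Il1b 286 and 213 UMIs, a log2 ratio of 0.05 (-0.21 to 0.31). Il6 had 0 UMIs in both, which allows up to 9.30 CPM in the rd10-vehicle library and 12.9 CPM in the rd10-TMB library.

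Interferon-response genes, which cells raise on sensing viral nucleic acid or interferon, were split. Of 17 with at least 50 UMIs, 7 (41.2%) were 2-fold lower in the rd10-TMB library, against 2.61% of all measured genes, and 0 were 2-fold higher. The log2 ratio was above 0 for 6 of the 17 and below 0 for 11. The summed level was 5802 CPM in the rd10-vehicle library and 3661 CPM in the rd10-TMB library, a log2 ratio of -0.66 (-0.78 to -0.55). Cxcl10, a chemokine for T cells, had 279 UMIs in 14 rd10-vehicle cells and 9 UMIs in 3 rd10-TMB cells, a log2 ratio of -4.33 (-5.62 to -3.53). Rsad2, which encodes viperin, had 108 UMIs in 6 cells and 1 UMI in 1 cell, a log2 ratio of -5.29 (-11.60 to -3.77). Isg15, a ubiquitin-like protein, had 100 UMIs in 10 cells and 30 UMIs in 6 cells, a log2 ratio of -1.23 (-1.90 to -0.66).

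The summed difference sat in very few cells. In the rd10-vehicle library, 1 cell held 151 Cxcl10 and 72 Rsad2 UMIs and another held 69 and 28. These 2 cells carried 734 of the 1871 interferon-list UMIs of the library, and without them the summed log2 ratio was -0.03 (-0.16 to 0.10). Cxcl10 itself still had a log2 ratio of -3.25 without its top cell. The median cell was slightly higher in the rd10-TMB library, at 27.1 interferon-list UMIs per 10000 against 22.2 in the rd10-vehicle library, with ranges of 7.57 to 206.6 and 3.19 to 508.6.

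**Figure D3:**
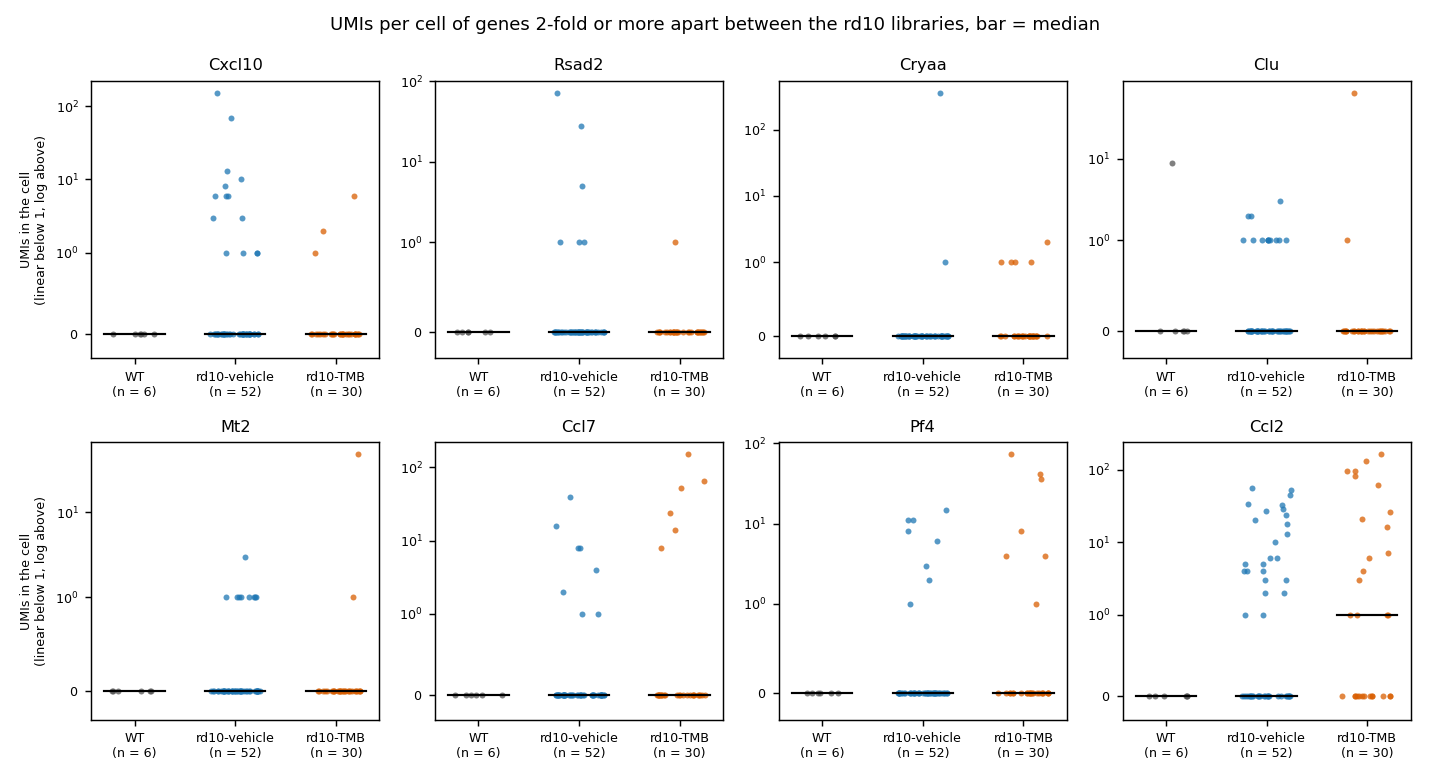
UMIs per cell of 8 genes at least 2-fold apart between the rd10 libraries (linear below 1, log above), for the 6 WT, 52 rd10-vehicle and 30 rd10-TMB cells, with medians as bars. Most UMIs of Cryaa, Clu and Mt2 lie in 1 cell each, while Ccl2 was found in 25 rd10-vehicle and 17 rd10-TMB cells.

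Single cells also held most UMIs of several other genes at the ends of the ranking. The 10 lowest ratios were those of Crygs, Crybb3, Crybb2, Rsad2, Cryaa, Cryba1, Cxcl10, Fn1, Cryba2 and Ifit1. The crystallins, proteins of the lens, had 1554 UMIs in the rd10-vehicle library, of which 1503 were in 1 cell with 11370 UMIs in all. Without that cell, 51 crystallin UMIs stood against 85 in the rd10-TMB library, a log2 ratio of 1.15 (0.64 to 1.69). Fn1, fibronectin, had 55 UMIs and 1 UMI, with 29 of the former in 1 of the 4 cells without C1qa. Among the 10 highest ratios were those of Lyve1, Mt2, Cp, Ccl7, Clu, Pf4, F13a1, Mgarp and Rilpl2. In the rd10-TMB library, 1 cell held 64 of 65 Clu UMIs and 48 of 49 Mt2 UMIs together with 32 Aqp4 UMIs, genes that Müller glia and astrocytes use. It also held 59 of the 63 astrocyte-list UMIs and 22 of the 26 endothelial-list UMIs of the library's members. Without their top cells, Clu had a log2 ratio of -2.60 and Mt2 of -2.01. Of the 25 genes higher by 2-fold, 10 stayed so without their top cell, and of the 38 lower, 13 did.

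Border macrophage transcripts divided the rd10 members. The border list had 9 genes in the matrix (Mrc1, Pf4, F13a1 and Lyve1 among them), and the 78 members with C1qa held from 0 to 189 of its UMIs. In this description, 28 cells with at least 3 such UMIs are called border-marker cells and the other 50 core cells, a limit set after the values were seen. Of the core cells 45 had 0 border UMIs, 3 had 1 and 2 had 2, and 4 of the border-marker cells sat at 3. The border-marker cells made up 15 of 52 cells in the rd10-vehicle library (28.8%, 17.1 to 43.1) and 13 of 30 in the rd10-TMB library (43.3%, 25.5 to 62.6). These intervals overlap. The set is a range of a score and not a cell type.

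Border-marker cells carried more MHC class II and Apoe transcripts, and core cells more homeostatic ones, in both libraries. Of the 1401 genes with at least 50 UMIs outside the border list, 16 were at least 4-fold higher in border-marker cells in both libraries and 12 at least 4-fold higher in core cells in both. Cd74, the invariant chain of MHC class II, was at 10312 CPM in border-marker and 54.8 CPM in core cells of the rd10-vehicle library, and at 6333 and 32.0 CPM in the rd10-TMB library. H2-Aa, an MHC class II chain, was at 3545 and 2661 CPM in border-marker cells and had 0 UMIs in core cells of both libraries. Of the border-marker cells, 10 of 15 in the rd10-vehicle library and 5 of 13 in the rd10-TMB library held at least 20 UMIs of 4 MHC class II genes, and 0 of the 50 core cells did. Ccl7 had 80 and 314 UMIs in border-marker cells and 0 in core cells. The chemokine and cytokine list as a whole had a log2 ratio of border-marker over core cells of -0.19 (-0.26 to -0.12) in the rd10-vehicle library and 1.01 (0.93 to 1.09) in the rd10-TMB library. Apoe was at 74767 and 67131 CPM in border-marker cells and at 24668 and 22695 CPM in core cells. Core cells held more Sparc, a matrix protein, at 1420 and 1486 CPM against 28.6 and 328 CPM in border-marker cells, and more Selplg, a selectin ligand, at 1006 and 871 CPM against 95.3 and 112. Sall1, the transcription factor that sets microglial identity, was at 199 and 136 CPM in core cells and at 19.1 and 9.37 CPM in border-marker cells. The homeostatic list had a log2 ratio of border-marker over core cells of -1.12 (-1.19 to -1.06) in the rd10-vehicle library and -1.11 (-1.18 to -1.05) in the rd10-TMB library. MHC class I genes were lower in border-marker cells, with log2 ratios of -0.30 (-0.43 to -0.16) and -0.52 (-0.66 to -0.38). C1qa differed less, at 8899 and 8620 CPM in core cells and at 6223 and 5921 CPM in border-marker cells.

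**Figure D4:**
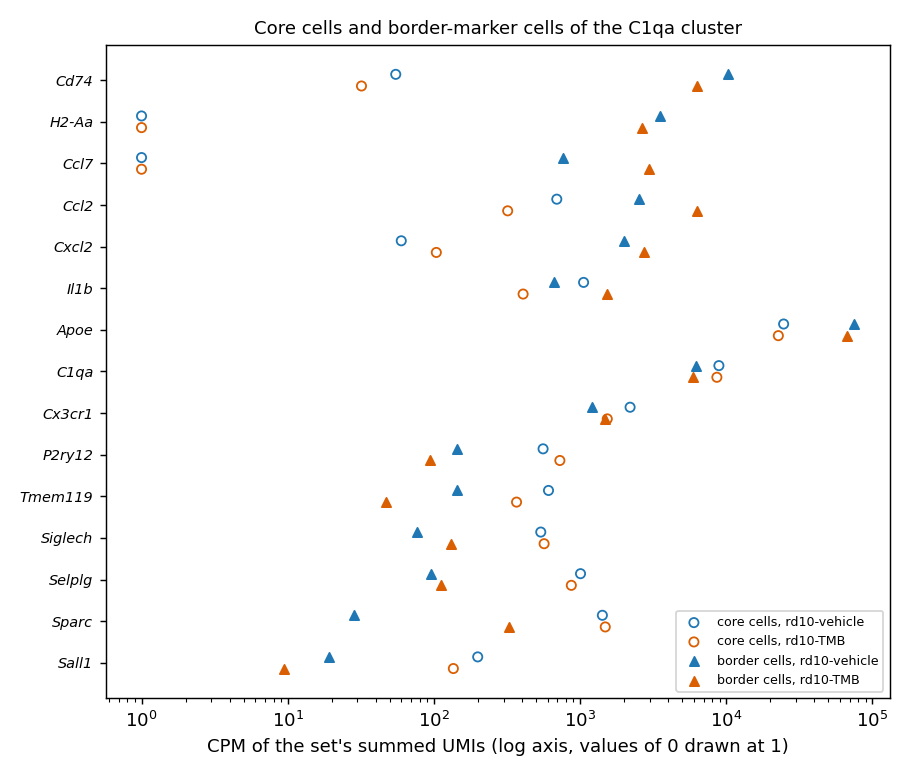
CPM of 15 genes in core cells (open circles; 33 rd10-vehicle and 17 rd10-TMB cells) and border-marker cells (triangles; 15 and 13 cells), on a log axis with values of 0 drawn at 1. None is on the list that divided the cells; Cd74, H2-Aa and Ccl7 were higher in border-marker cells, and Selplg, Sparc and Sall1 in core cells, in both libraries.

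Ccl2, summed over cells, was higher in rd10-TMB border-marker cells and lower in rd10-TMB core cells, the latter resting largely on 2 rd10-vehicle cells. Among border-marker cells, 503 genes reached 50 UMIs, of which 27 (5.37%) were 2-fold higher and 10 (1.99%) 2-fold lower in the rd10-TMB library. The higher genes included 5 of the 6 measured genes of a Müller glia list. A list of rod genes had 68 and 171 UMIs in these cells, with 79 of the latter in 1 cell. Ccl2 was at 2526 CPM in border-marker cells of the rd10-vehicle library and 6305 CPM in those of the rd10-TMB library, a log2 ratio of 1.32 (1.11 to 1.53). In core cells it was at 693 and 320 CPM, a log2 ratio of -1.09 (-1.66 to -0.60). That ratio was -0.39 (-0.99 to 0.16), an interval that includes 0, without the 2 core cells with the most Ccl2 UMIs. Without the 2 border-marker cells with the most UMIs of the gene, both of the rd10-TMB library, the log2 ratio was 0.83 (0.60 to 1.06) for Ccl2 and 0.62 (0.18 to 1.07) for Ccl7. Il1b, an inflammatory cytokine, had 70 and 162 UMIs in 7 of 15 and 6 of 13 border-marker cells, a log2 ratio of 1.17 (0.77 to 1.61) that turned to -0.85 (-1.51 to -0.26) without the 2 rd10-TMB cells with the most UMIs. In core cells its log2 ratio was -1.35 (-1.85 to -0.93), where it had 212 UMIs in 12 of 33 cells and 51 UMIs in 6 of 17 cells. The border list as a whole had a summed log2 ratio of 1.15 (0.95 to 1.37) over all members. Of the 484 list UMIs in the rd10-TMB library, 1 cell held 189, and without the 2 top cells the log2 ratio was 0.08 (-0.18 to 0.34).

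Core cells of the 2 libraries were compared on their own. There were 33 with 200705 UMIs in the rd10-vehicle library and 17 with 125180 UMIs in the rd10-TMB library. Of 798 genes with at least 50 UMIs, 6 (0.752%) were 2-fold higher and 27 (3.38%) 2-fold lower in the rd10-TMB library. Of these 27, 9 were crystallins, with 1503 of their 1544 core UMIs of the rd10-vehicle library in the 1 cell with most crystallin UMIs. Of the chemokine and cytokine list, 12 genes were measured and 4 were 2-fold lower (Ccl2, Cxcl10, Il1b and Pdgfb), with a summed log2 ratio of -0.67 (-0.75 to -0.59). Some of these calls rested on 1 or 2 rd10-vehicle cells. Without the 2 core cells with the most UMIs of each gene, all of the rd10-vehicle library, the log2 ratio was -0.39 (-0.99 to 0.16) for Ccl2 and -0.59 (-1.11 to -0.12) for Il1b, both less than 2-fold. It was -1.63 (-2.97 to -0.70) for Cxcl10 and -1.06 (-2.03 to -0.29) for Pdgfb. The summed list was at -0.52 (-0.60 to -0.44) without its top cell, of the rd10-vehicle library, and at -0.75 (-0.83 to -0.66) when the next, of the rd10-TMB library, was also left out. Ccl4 was at 10837 and 6622 CPM, a log2 ratio of -0.71 (-0.83 to -0.59), and Ccl3 at 5949 and 4218 CPM, a log2 ratio of -0.49 (-0.65 to -0.35). Pdgfb, a growth factor chain, had 82 UMIs in 25 cells and 16 UMIs in 10 cells, a log2 ratio of -1.61 (-2.55 to -0.89). Tlr2, a receptor for bacterial lipoproteins, had 67 UMIs in 20 cells and 11 UMIs in 6 cells, a log2 ratio of -1.82 (-2.99 to -0.995). Sgk1, a kinase that glucocorticoids induce, had 139 UMIs in 27 cells and 38 UMIs in 10 cells, a log2 ratio of -1.16 (-1.75 to -0.66). It was -0.78 (-1.38 to -0.25) without its top cell, of the rd10-vehicle library. With the next, of the rd10-TMB library, also left out, the ratio was -1.92 (-2.89 to -1.21). Trem2 was higher in the rd10-TMB core cells, at 1759 and 2868 CPM, a log2 ratio of 0.71 (0.49 to 0.92), with UMIs in 33 of 33 and 17 of 17 cells. The interferon list had 11 measured genes of which 4 were 2-fold lower (Cxcl10, Ifit3, Isg15 and Rsad2), and its summed log2 ratio was -0.96 (-1.14 to -0.79). The 2 rd10-vehicle cells named above were both core cells and held 734 of the 1137 UMIs. Without them the summed log2 ratio turned to 0.39 (0.18 to 0.60), higher in the rd10-TMB library. The homeostatic and damage-associated lists had 0 genes 2-fold apart among 23 and 21 measured, with summed log2 ratios of -0.02 (-0.06 to 0.03) and -0.09 (-0.13 to -0.05).

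**Figure D5:**
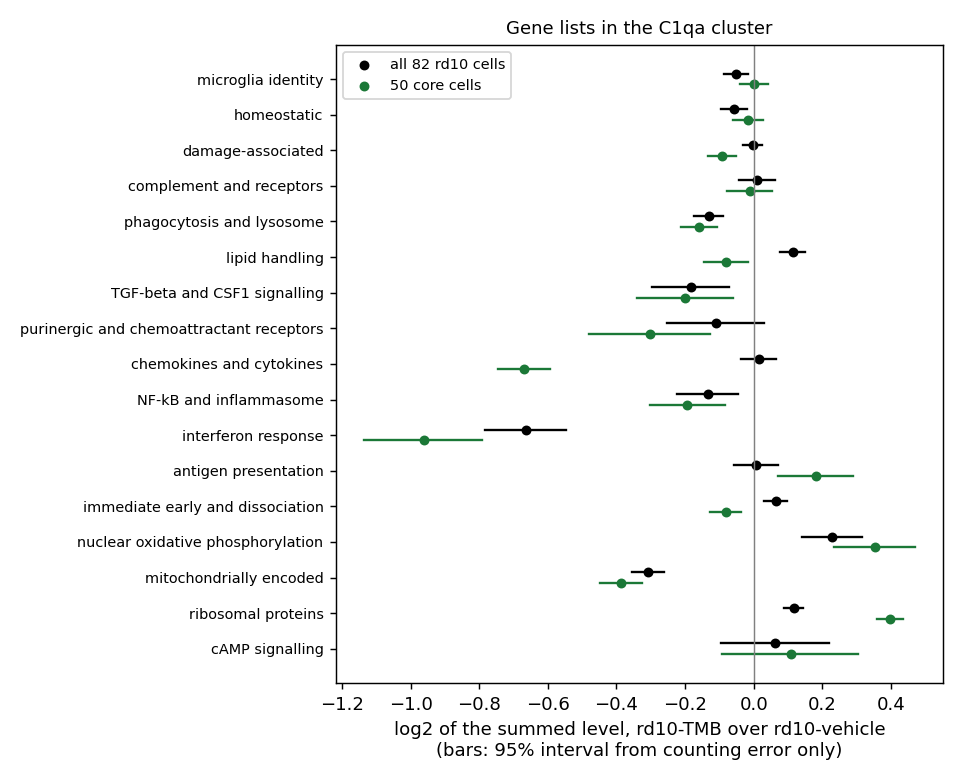
Log2 ratio of the summed level of 17 gene lists, rd10-TMB over rd10-vehicle, over all 82 rd10 members (black) and the 50 core cells (green), with 95% intervals for counting error only. The homeostatic list sits at -0.06 and -0.02, the interferon list at -0.66 and -0.96 (-0.03 and 0.39 without 2 rd10-vehicle cells), and the chemokine list moves from 0.02 over all members to -0.67 in core cells.

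Energy and translation genes showed small shifts spread over many genes. Of 33 nuclear genes of oxidative phosphorylation with at least 50 UMIs, 0 were 2-fold apart, 7 had ratios below 0, and the list had a summed log2 ratio of 0.23 (0.14 to 0.31). Of the 12 measured mitochondrially encoded genes, 12 had ratios below 0, and the summed log2 ratio was -0.31 (-0.35 to -0.26). The 34 ribosomal protein genes had a summed log2 ratio of 0.12 (0.09 to 0.14) over all members and 0.40 (0.36 to 0.43) in core cells, but -0.10 (-0.15 to -0.06) in border-marker cells, where 20 of the 34 had ratios below 0. Immediate early genes, which dissociation of tissue can raise, were at 48920 and 51124 CPM, a log2 ratio of 0.06 (0.03 to 0.10), with 0 of 25 genes 2-fold higher and 1, Cd69, 2-fold lower (4%, against 2.61% of all genes). Their summed log2 ratio was -0.08 (-0.13 to -0.04) in core cells and 0.21 (0.15 to 0.27) in border-marker cells. The part of dissociation in any level here was not tested.

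Few or no transcripts were found of several receptors for the 3 drugs. Adrb1, the target of metoprolol, had 13 and 8 UMIs in 10 and 5 cells. The alpha-1 receptor genes Adra1a, Adra1b and Adra1d and the dopamine receptor gene Drd2 had 0 UMIs in both libraries. Genes downstream of these receptors in cAMP signalling had a summed log2 ratio of 0.06 (-0.10 to 0.22), with 0 of 5 measured genes 2-fold apart.

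Most homeostatic genes and Apoe ran against each other from cell to cell within the core cells. Over the 50 core cells, the share of UMIs from Apoe had a Spearman rank correlation of -0.65 with that of Tmem119, -0.55 with Csf1r, -0.54 with Selplg and -0.47 with P2ry12. Of 18 homeostatic genes with at least 100 UMIs in core cells, 18 had a negative correlation in each rd10 library taken alone, and the median over both libraries was -0.42. Over all 412 genes with as many UMIs, 55.1% had a negative correlation, 38.3% had one in each library, and the median was -0.04. Of the 18, 3 (Jun, Egr1 and Rhob) respond early to stimulation, and the other 15 had a median of -0.38. With Apoe left out of each cell's total, 17 of 18 homeostatic genes and 31.1% of all genes were negative in each library. Damage-associated genes were mixed, with 12 of 18 positive and a median of 0.08. Among them were Cd63 with 0.51, Lyz2 with 0.48 and Tyrobp with 0.37. Points of 1 library share its depth and preparation, and shares of 1 total are not independent of each other. Core cells with over 100 Apoe UMIs per 10000 numbered 13 of 33 in the rd10-vehicle library and 8 of 17 in the rd10-TMB library, and those with under 10 numbered 7 and 3.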

How the data were processed

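Retinas were dissociated with papain and 1 pooled library per group was made with 10x droplet chemistry. Per the labels and the study's methods, the authors aligned reads to mm10 (tools and versions from the submitters' processing notes) with Cell Ranger 6.0.1, removed doublets with Scrublet, filtered cells on detected genes in Seurat 3.2.2 and clustered them once Harmony had adjusted for the library of origin. Values in the matrix the authors deposited are on a natural log scale, taken after dividing by each cell's total, multiplying by 10000 and adding 1, and the deposited cell table gives each cell's UMI count, detected genes, library and cluster. Each entry was turned back into a count with its cell's total; 100% came out whole within 0.001 UMI, and 15242 of 15242 cells matched their total. The fewest detected genes in a deposited cell was 500.

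Members were all cells of cluster 13, with no added filter and no doublet caller. Counts were summed per library and scaled to CPM. Cells are not replicates, so no p-value was computed, and intervals cover counting error only: exact Poisson for sums, exact Clopper-Pearson for shares, exact conditional for ratios, all at 95%. The limit for a count of 0 is 3 counts. Genes needed 50 UMIs over both rd10 libraries. Named genes were listed genes with at least 20 UMIs, the 20 highest folds over the rest, the 10 highest and 10 lowest ratios without sex-linked genes, and the 5 genes most like the markers. The members and gene lists were chosen with earlier results of these data known. The division into core and border-marker cells, and the values without top cells, were chosen after seeing the data. Some genes that meet this rule are not reported here. Coordinates and promoters came from RefSeq on GRCm38.p6. The ratio code was tested on simulated counts. Alternatives covered scaling, cell filters, thinning to 1000 UMIs, the pseudocount and count minimums. Python 3.11.15 with scipy 1.17.1 was used.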

Additional observations from a re-analysis of the deposited data

Results flagged for a closer look

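C1qa was also found at low counts in cells outside the cluster. The other 15154 cells held 29 C1qa UMIs, above the 3 that a count of 0 allows. They lay in 27 cells, of which 13 were in the rd10-vehicle library, 12 in the rd10-TMB library and 2 in the WT library, with at most 3 UMIs in a cell. The share of cells outside the cluster with a C1qa UMI was 0.220% in the rd10-vehicle library, 0.251% in the rd10-TMB library and 0.0447% in the WT library, at median depths of 4798, 4746 and 3512.5 UMIs. By cluster, the Müller glia-like cells held 11 of these cells and cluster 3 held 9.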

How the results depend on the processing

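The number of genes 2-fold higher in the rd10-TMB library (25) was 11 without the 5% of cells with the most UMIs, 2 with cells thinned to 1000 UMIs, 120 at a minimum of 20 UMIs, 6 at 100 UMIs, 84 at a 1.5-fold limit and 6 in core cells. The number 2-fold lower (38) was 5, 151, 15 and 128 with thinning, both minimums and the 1.5-fold limit, 10 in border-marker cells and 20 without the cell with the most UMIs of each gene. Fewer UMIs or cells entered the thinned, core and border-marker counts. The homeostatic log2 ratio of -0.06 was 0.0682 with thinning, -0.0998 in cells with 2 of the 4 markers, -0.129 in cells with C1qa, -0.0158 in core and -0.00247 in border-marker cells. The damage-associated ratio of -0.00 was 0.15 as a mean over cells, 0.0354 without the 5% of cells, 0.141 with thinning, and -0.0406, -0.0482, -0.0928 and -0.172 in the same 4 sets. The cause was not tested. The WT share of 0.134% was 0 with at least 3 markers. In border-marker cells, Crygs and Cryaa were at 0.98, Cryba1 at 1.297, Cryba2 at 1.98 and Ifit3 at 0.43. All crystallins together held 9 rd10-vehicle and 50 rd10-TMB UMIs in border-marker cells, so their ratios there rest on very few UMIs. Without their top cell, Crybb3 was at 0.42, Crybb2 at 1.42, Cryaa at 2.23, Cryba1 at 1.65 and Cryba2 at 2.75. These values are near the floor. In that order the rd10-TMB library held 0, 3, 6, 6 and 4 UMIs, and no other rd10-vehicle cell held more than 1. For Crybb3 no UMI was left in either library, so its value reflects only the pseudocount and the unequal totals. Without the 5% of cells, in core cells and without the top cell, Mt2 was at -1.31, -1.13 and -2.01, Clu at -2.41, -3.23 and -2.60, and Mgarp at -0.58, -0.82 and -0.36. Ccl2 was at -1.09 in core cells, and at -0.39 (-0.99 to 0.16) without its 2 top core cells. The interferon list in core cells turned from -0.96 to 0.39 without its 2 top cells. The core, border-marker, C1qa and top-cell settings were chosen after seeing the data. No paired analysis was possible because the groups share only 1 replicate number, with 1 library each. With 1 library per group no replicate could be left out, and the depth of 30 and 52 cells limits every value.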

Other observations

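Ligands for microglial receptors were found in several clusters, and the ranks below are those of the level over the 3 libraries together. Tgfb1, Apoe and Ccl2 ranked first in the microglial cluster itself, with 156, 40147 and 1958 CPM. The Apoe rank depended on the border-marker cells, at 74767 and 67131 CPM in the rd10-vehicle and rd10-TMB libraries. Core cells, at 24668 and 22695 CPM, were near the Müller glia-like cells, at 24577 and 24466 CPM, and below cluster 18, at 30916 and 35772 CPM. The 6 WT cells of the cluster, which are not called microglia here, were at 4281 CPM. All 69 of their Apoe UMIs lay in the 1 cell with Glul and Aqp4. Müller glia-like cells of the WT library were at 18625 CPM. Il34, a ligand of Csf1r, was highest in the pericyte-like cluster 14, at 227, 139 and 315 CPM in the WT, rd10-vehicle and rd10-TMB libraries, from 15, 13 and 23 UMIs. Csf1, the other ligand of that receptor, also ranked first in the microglial cluster, with 23 UMIs in the rd10-vehicle library, 8 in the rd10-TMB library and 0 in the 6 WT cells, but the astrocyte-like cluster 12 was slightly higher in the rd10-TMB library, at 35.5 against 34.5 CPM, and was at 49.4 CPM in the WT library. Cx3cl1, the fractalkine that Cx3cr1 binds, ranked first in the amacrine-like cluster 5, at 104.1, 99.3 and 170.0 CPM, from 219, 15 and 31 UMIs. The ganglion-like cluster 16 was slightly higher in the WT library, at 104.3 CPM from 71 UMIs. It was also higher in the rd10-vehicle library, at 127 CPM, but from 7 UMIs in 3 cells. Its 3 rd10-TMB cells held 1 UMI. Tgfb2 ranked first in the astrocyte-like cluster 12, at 771, 738 and 660.3 CPM, with the rod bipolar-like cluster 2 at 773, 664 and 635 CPM. Müller glia-like cells held Ccl2 at 0.301 CPM in the WT library (1 UMI), 13.8 CPM in the rd10-vehicle library (306 UMIs) and 9.42 CPM in the rd10-TMB library (158 UMIs). Complement C3, whose fragments Itgam and C3ar1 recognise, was at 4.22, 31.4 and 16.4 CPM in the same cells, from 14, 697 and 275 UMIs.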
